A study of Hylyphantes graminicola with 5 samples.

Results

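The cells described here are 263 cells from the brain of the spider *Hylyphantes graminicola* that each held more than 100 counted transcripts of Calcitonin_2 (evm.TU.CTG-508.11), a predicted neuropeptide precursor. They were found among 31147 kept cells, of which they were 0.844% (exact Clopper-Pearson 95% interval 0.746% to 0.952%, counting error only). Kept cells had 500 to 60000 unique molecular identifiers (UMIs, each standing for 1 captured transcript), at least 200 genes and a mitochondrial share under 40%, which left 77.4% of 40233 barcodes. Since the count of Calcitonin_2 chose the cells, its levels are given as a description with no test, and so are those of its near-identical copy Calcitonin_1.

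The study made 5 droplet libraries of dissected adult brains, 3 from females and 2 from males, to chart the cell types of the spider brain. Each library pooled 35 to 40 brains of mixed age, so no value belongs to a single animal, and the labels separate the groups by sex only. A batch that went with sex could not be told apart from sex. Library totals ran from 12269605 UMIs (female replicate 1) to 35943668 UMIs (female replicate 3). The paper states that the adults were collected in the wild at Langfang, Hebei, in September and October, and housed individually before dissection. No label says how they were divided into pools, so p-values over libraries measure the spread between these pools.

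Neuropeptides are cut from larger precursor proteins, packed into dense-core vesicles and released from neurons to act on receptors at a distance. In vertebrates calcitonin is a hormone of calcium balance, and its relatives act as neuropeptides. In insects the best known member of the family is diuretic hormone 31 (DH31), which drives fluid secretion and is also made by brain neurons. For this spider the study lists both kinds, as Calcitonin_1, Calcitonin_2, Calcitonin_3, DH31_1 and DH31_2.

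The label of neurons was checked against markers. Syt1, a calcium sensor of synaptic vesicles, had a UMI in all 263 cells, elav, an RNA-binding protein of neurons, in 91.6% and brp, a scaffold of the active zone, in 67.3%. Summed over 5 neuron markers, the cells had 6837 to 14044 CPM (UMIs scaled to a total of 1000000 over all genes but the Calcitonin_1 and Calcitonin_2 pair) in the 5 libraries, against 1430 to 5989 CPM in 456 cells positive for the hemocyte gene Hml. The 8 glia markers summed to 20.3 to 37.5 CPM, and the 5 hemocyte markers to 11.98 to 36.4 CPM. In the Hml-positive cells the hemocyte markers summed to 1698 to 3462 CPM. That contrast was fixed by the choice of those cells, since the Hml genes that chose them are among the 5 markers. All 5 neuron markers were thus present in the Calcitonin_2 rich cells, and they were also at 6675 to 12312 CPM in the other cells of matched depth used below.

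The 263 cells came from every library. The females gave 30, 21 and 75 cells, which were 0.910%, 0.441% and 0.974% of the kept cells of replicates 1 to 3. The males gave 100 cells (1.38%) from replicate 1 and 37 cells (0.455%) from replicate 2. The highest and the second lowest share were thus both male. The median cell held 171 Calcitonin_2 UMIs (quartiles 128 and 261.5), and library medians lay close together at 172, 195 and 163 UMIs in the females and 176.5 and 145 UMIs in the males. Up to 200 UMIs were counted in 168 cells, more than 200 and up to 500 in 71 cells, and more than 500 and up to 1443 in 18 cells. Of all kept cells 21 lay within the last 10 UMIs up to the threshold and 38 within the first 10 above it, so the limit cuts through a continuous range rather than a gap.

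**Figure D1:**
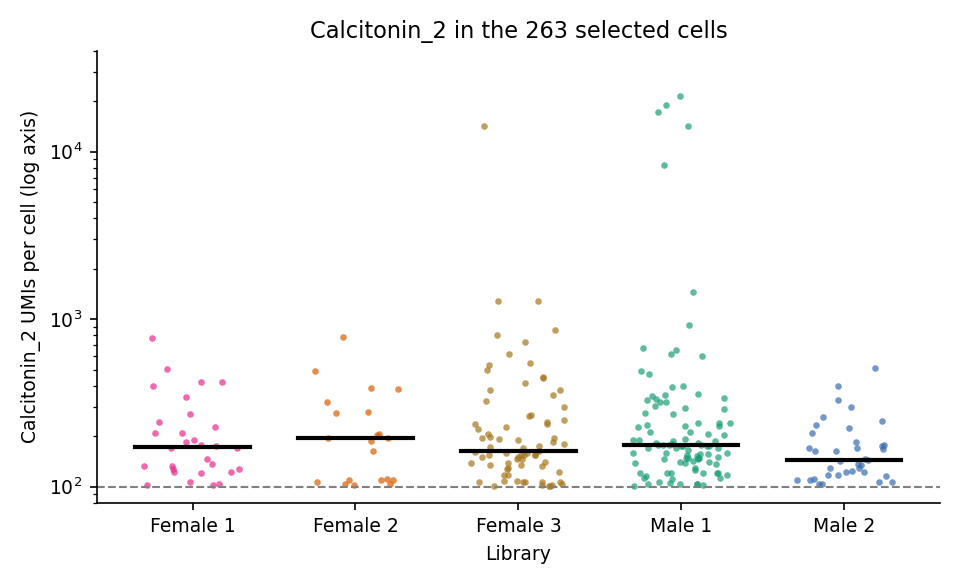
Calcitonin_2 UMIs of each selected cell (points, log axis) in the 5 libraries, with the library median (black bar) and the threshold of 100 UMIs (dashed). Medians lie between 145 and 195 UMIs, and 6 cells over 5000 UMIs stand apart, 1 in female replicate 3 and 5 in male replicate 1.

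A gap did occur at the upper end, between 1443 and 8317 UMIs. Above it lay 6 cells, which held 61.4% of all Calcitonin_2 UMIs in the 263 cells. The cell of female replicate 3 held 14180 Calcitonin_2 UMIs among 21143, or 67.1% of its transcripts. Those of male replicate 1 held 21460, 18886, 17350, 14169 and 8317 UMIs, which were 53.7%, 52.6%, 76.9%, 71.8% and 29.8% of the cell. Only 3 of them held another precursor above 100 UMIs. That of female replicate 3 held 132 UMIs of FMRFa_4, the one with 21460 UMIs held AT, CCAP_3, ILP_3 and OK, and the one with 18886 UMIs held DH31_1 and RYa_2. None was called a doublet. In the median cell of all 263, by contrast, Calcitonin_2 made up 2.29% of the transcripts, and it was the most abundant precursor in 114 cells (43.3%).

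Calcitonin_2 was not limited to these cells. At least 1 UMI was found in 3673 kept cells (11.8%) and at least 10 UMIs in 1162. The 263 cells held 80.6% of all its UMIs, from 42.1% in male replicate 2 to 91.04% in male replicate 1. Among the Hml-positive cells, taken as cells that should not make neuropeptides, 29 of 456 had a Calcitonin_2 UMI (6.36%, interval 4.30% to 9.01%), at library medians of 2212 to 3482 UMIs against 1925 to 3096.5 UMIs in kept cells. These cells were not free of neuropeptide RNA, since the 69 other precursors summed to 2474 to 30894 CPM in them, against 112599 to 157002 CPM in the Calcitonin_2 rich cells. Free RNA can give such a share, so single UMIs of Calcitonin_2 were not read as expression. The highest count in an Hml-positive cell was 60 UMIs, in female replicate 3, and at most 2 UMIs in the other libraries. Calcitonin_2 rich cells were left out of the Hml-positive cells beforehand, so no count above 100 UMIs could occur among the latter.

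The cells were deeper than the average cell. Their median total was 5588, 9019 and 6183 UMIs in the female libraries and 12926.5 and 5830 UMIs in the male libraries, where kept cells had 1925 to 3096.5 UMIs. Their median mitochondrial share was 9.89% to 21.5%, below that of kept cells in the same library (14.05% to 28.9%) in all 5 libraries. A threshold on raw UMIs favours deep cells, so each cell was set against 3 other cells of its library with the nearest total outside the Calcitonin pair. These 789 depth-matched cells had medians of 5324.5 to 12096 UMIs. Their mitochondrial share, at medians of 13.2%, 27.4% and 12.22% in the female and 15.03% and 20.3% in the male libraries, was still above that of the Calcitonin_2 rich cells (11.8%, 21.5%, 9.89%, 13.4% and 18.96%) in all 5 libraries. Doublet calls marked 14.4% of the Calcitonin_2 rich cells, 9.52% to 21.6% by library, against 5.56% to 28.8% of the matched cells. Pairs of libraries shared 5 to 15 cell barcodes, and none of them was a Calcitonin_2 rich cell in both.

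Calcitonin_1 (evm.TU.CTG-1293.44), whose predicted protein is nearly identical to that of Calcitonin_2, was found in the same cells. It had a UMI in 155 of the 263 cells (58.9%), in 4.06% of matched cells and in 0.658% of Hml-positive cells. Of 12 kept cells with more than 100 Calcitonin_1 UMIs, 11 were Calcitonin_2 rich, and of 163 with at least 10, 141 also held at least 10 of Calcitonin_2. The ratio of both copies was not constant. Among females Calcitonin_1 made up 20.8% of the pair in replicate 1, 0.707% in replicate 2 and 3.89% in replicate 3, and among males 0.681% and 5.85%. Without the 6 cells above 5000 UMIs the shares of female replicate 3 and male replicate 1 were 6.50% and 2.85%. Within each library it started from cells at 0, and the highest share was 52.7%, 11.3% and 52.2% in the female libraries and 41.5% and 52.2% in the male ones. Cells with a share above 40% were thus found in every library but female replicate 2. Calcitonin_1 exceeded Calcitonin_2 in 3 cells. Reads that match both copies equally are dropped by the counting program, so the split between the copies, and the total of each, is uncertain.

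**Figure D2:**
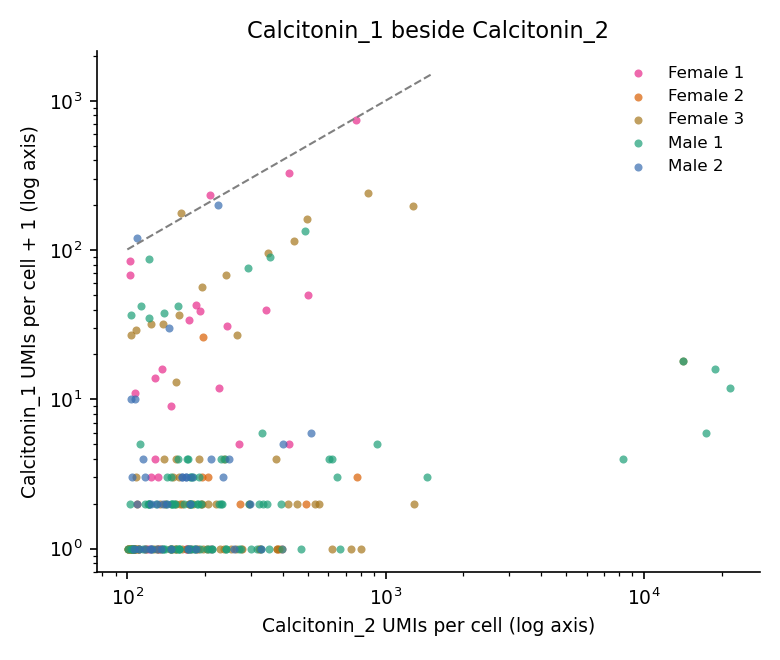
Calcitonin_1 UMIs plus 1 against Calcitonin_2 UMIs of each selected cell (log axes, colours are libraries, the dashed line marks equal counts). Most cells lie at the bottom, 11 cells hold more than 100 Calcitonin_1 UMIs, and the 6 cells above 5000 Calcitonin_2 UMIs hold 3 to 17.

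The other members of the family were not raised along with Calcitonin_2. DH31_2 (evm.TU.CTG-674.24) had 134, 58.4 and 181 CPM in the Calcitonin_2 rich cells of female replicates 1 to 3 and 371 and 485 CPM in the males, against 52842, 47292, 3892, 18223 and 27849 CPM in the matched cells in the same order. All 5 libraries lay below their matched cells, with a log2 difference of -6.79 ± 0.66 (SE) and an adjusted p of 1.36e-05 in edgeR's quasi-likelihood test on sums per library (n = 5). Only 1 Calcitonin_2 rich cell passed 100 UMIs of DH31_2, against 19 matched cells, so the matched sums rest on few cells. The call was lost with 1 matched cell for each Calcitonin_2 rich cell (-1.90, adjusted p = 0.623), without the cells rich in another precursor (-1.56, adjusted p = 0.526) and with Calcitonin_2 above 2% of the cell (-2.08, adjusted p = 0.377). DH31_1 (evm.TU.CTG-308.2) passed 100 UMIs in 19 Calcitonin_2 rich and 67 matched cells, with a log2 difference of -1.10 ± 0.37 that did not pass the test (adjusted p = 0.0956). Calcitonin_3 (evm.TU.CTG-571.10), at 12.5 to 442 CPM against 89.6 to 5295 CPM, did not pass either (-2.80 ± 0.92, adjusted p = 0.0884). Left out 1 at a time, male replicate 2 brought Calcitonin_3 to an adjusted p of 0.000556 and female replicate 2 brought DH31_1 to 0.0129.

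Over all genes, 395 of 6057 tested (6.52%) differed between Calcitonin_2 rich and matched cells, 147 higher (2.43%) and 248 lower (4.09%). The same direction was seen in all 5 libraries for 132 of the higher and 166 of the lower genes. Without female replicate 3 the count was 224 and without male replicate 1 it was 226. With a mitochondrial share under 20% it was 231. The count fell further to 95 with Calcitonin_2 above 2% of the cell and 94 against matched cells rich in another precursor. It was 38 with cells of 250 to 3000 genes, 37 with no library block and 6 without the cells rich in another precursor. Some of these settings keep fewer cells or genes. It rose to 737 with more than 50 Calcitonin_2 UMIs and 975 against all other kept cells. The median log2 difference over all genes tested was 0.0050. The test was repeated under 21 alternatives (other cells, limits, tools or 1 library left out), and the number in which a named gene was called is given below, out of those in which it was tested. Of 69 other precursors 38 were expressed enough to be tested, 8 of them higher and 15 lower, with a median of -1.38. A precursor that passes the filter through a few rich cells of 1 side had to differ, so these counts describe the tested precursors and not the whole list.

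**Figure D3:**
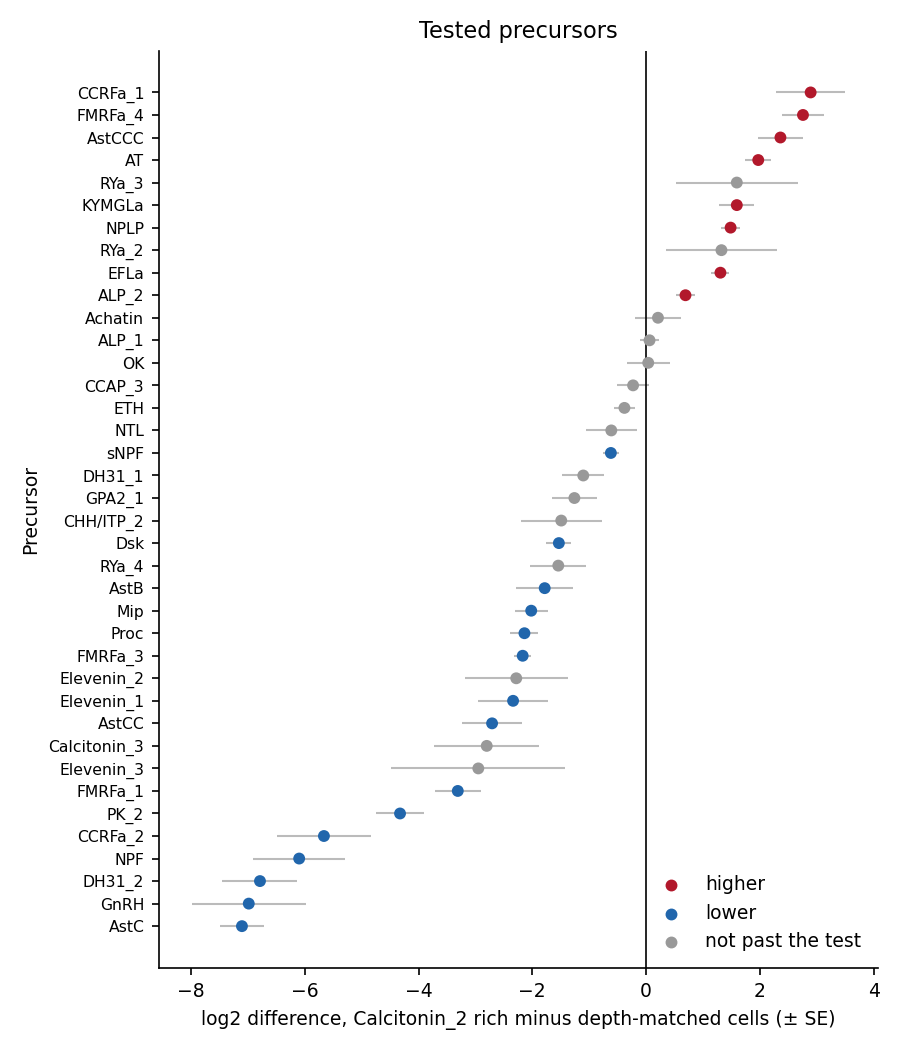
Log2 difference (± SE) of the 38 tested precursors between Calcitonin_2 rich and depth-matched cells, over 5 libraries. The 8 precursors in red were higher, from ALP_2 at 0.69 to CCRFa_1 at 2.89, and the 15 in blue were lower, down to AstC at -7.10.

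Among the precursors that rose, FMRFa_4 and CCRFa_1 gave the closest link to Calcitonin_2. FMRFa_4 (evm.TU.CTG-408.33), a precursor of FMRFamide-type peptides, had 2103, 3148 and 2579 CPM in the female and 3286 and 5052 CPM in the male libraries, against 815, 190, 933, 302 and 260 CPM in the matched cells. Every value of the former lay above every value of the latter. The groups differed by 6.77-fold (log2 2.76 ± 0.38, adjusted p = 0.000294). It passed 100 UMIs in 35 Calcitonin_2 rich cells (13.3%) and 6 matched cells (0.760%), and 35.4% of the 99 kept cells this rich in FMRFa_4 were Calcitonin_2 rich. CCRFa_1 (evm.TU.CTG-571.11), which encodes a CCRFamide, had 3007, 4348 and 2659 CPM in the females and 2557 and 8945 CPM in the males, against 1825, 41.5, 382, 909 and 402 CPM in matched cells. Each library was higher than its matched cells, by 7.43-fold (log2 2.89 ± 0.61, adjusted p = 0.00919). It passed 100 UMIs in 32 Calcitonin_2 rich and 7 matched cells, and 27.1% of the 118 kept cells this rich in it were Calcitonin_2 rich. Cells with both precursors above 100 UMIs numbered 20, which was 62.5% of the CCRFa_1 rich and 57.1% of the FMRFa_4 rich cells, and occurred in all 5 libraries, against 0 of the matched cells. With the cells chosen by Calcitonin_2 above 2% of all transcripts instead, FMRFa_4 and CCRFa_1 stayed higher (log2 3.04 and 4.48, adjusted p = 0.0122 and 0.00643). CCRFa_1 lost the call without male replicate 2 (adjusted p = 0.0562), without doublet calls (0.105) and at a mitochondrial share under 20% (0.0747), and both lost it with cells of 250 to 3000 genes (0.191 and, for FMRFa_4, 0.0585).

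AT (evm.TU.CTG-216.1), the precursor of allatotropin, a peptide named in insects for its action on juvenile hormone synthesis, was the most abundant of the other precursors. It had 45892, 55774 and 38262.5 CPM in the female and 60479 and 51852 CPM in the male Calcitonin_2 rich cells, against 6543, 11522, 19978, 15486 and 8199 CPM in the matched cells. All values of the former lay above all values of the latter, with a difference of 3.92-fold (log2 1.97 ± 0.23, adjusted p = 6.11e-05). More than 100 AT UMIs were found in 72 cells (27.4%), namely 4, 8, 15, 35 and 10 by library, against 78 matched cells (9.89%). In these 72 cells the median was 1688 AT UMIs, above Calcitonin_2 in 66 of them. They were deep, with a median of 18665 UMIs against 5940 in the rest, and doublet calls marked 9.72% of them against 16.2%. AT was also rich in 1057 kept cells, of which the Calcitonin_2 rich cells were 6.81%. The call was lost with more than 200 Calcitonin_2 UMIs (1.25, adjusted p = 0.190), with Calcitonin_2 above 2% of the cell (0.67, adjusted p = 0.746) and with cells of 250 to 3000 genes (0.74, adjusted p = 0.875). At 2000 UMIs drawn from every cell it was 1.68 (adjusted p = 4.35e-05).

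OK (evm.TU.CTG-1337.38), the orcokinin precursor, was found almost only where AT was. Of 22 Calcitonin_2 rich cells with more than 100 OK UMIs, 21 also passed 100 AT UMIs (95.5%), in 4 libraries, while 4 of 17 OK rich matched cells did. Its summed level did not pass the test (log2 0.04 ± 0.37, adjusted p = 0.977). It was at 871, 195.9 and 2022 CPM in the females and 2183 and 1004 CPM in the males, against 3145, 290.4, 617, 957 and 897.5 CPM, and the groups overlapped. The cells rich in both were deep, the median total of the OK rich ones being 22431 UMIs.

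**Figure D4:**
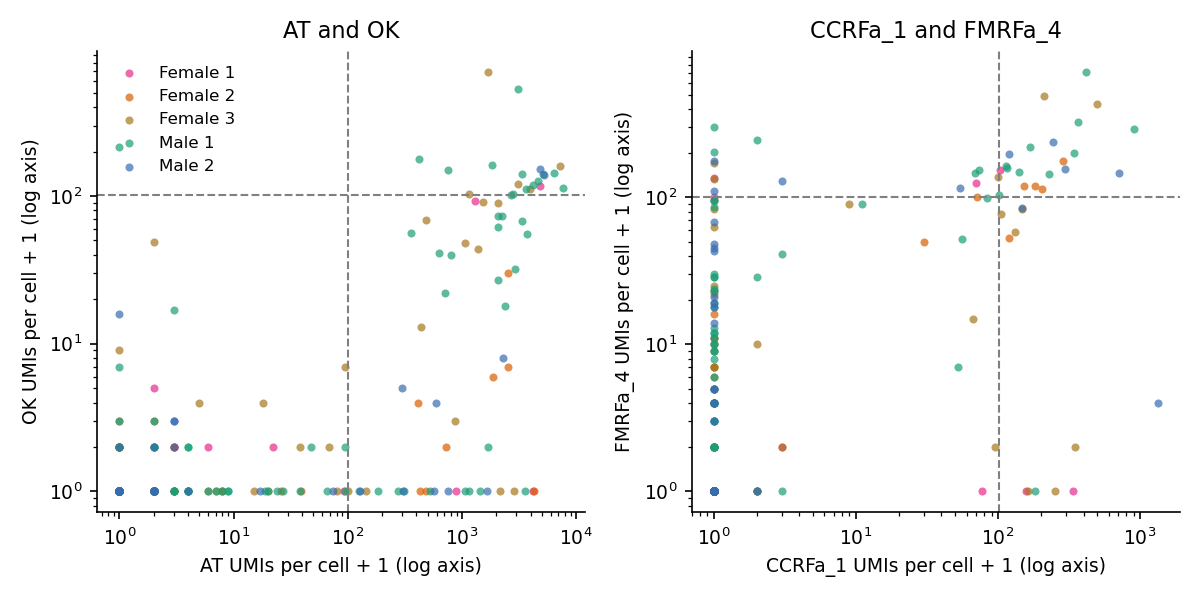
UMIs plus 1 of 2 precursor pairs in each Calcitonin_2 rich cell (log axes, colours are libraries, dashed lines at 100 UMIs). On the left 21 of 22 OK rich cells lie right of the AT line, and on the right 20 cells lie above both lines for CCRFa_1 and FMRFa_4.

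The other 5 precursors that rose were lower in level. AstCCC (evm.TU.CTG-1140.24), a relative of allatostatin C, had 1276, 8367, 496, 529 and 899 CPM in the 5 libraries against 147 to 397 CPM in matched cells (2.36 ± 0.40, adjusted p = 0.00194), so every library was higher and female replicate 2 stood above the rest. Its sum in female replicate 2 rested mainly on cells with 1416 and 512 AstCCC UMIs. In female replicate 1 a single cell held 164 of them. EFLa, the EFLamide precursor, had 2268 to 4723 CPM against 531 to 1600 CPM (1.31 ± 0.16, adjusted p = 9.91e-05) and passed 100 UMIs in 27 cells. NPLP, a neuropeptide-like precursor, rose by 1.49 ± 0.17 (adjusted p = 6.01e-05), and KYMGLa by 1.60 ± 0.31 (adjusted p = 0.00527). The KYMGLa sums rested mainly on few cells in female replicate 1 (cells with 50 and 48 UMIs) and female replicate 2 (a cell with 41 UMIs). KYMGLa was called in 11 of 20 alternatives, and was 0.74 (adjusted p = 0.281) without doublet calls, 0.80 (0.502) with more than 200 Calcitonin_2 UMIs, 1.26 (0.148) at a mitochondrial share under 20%, 1.30 (0.0705) with 1 match and 1.71 (0.0761) in DESeq2. AstCCC, EFLa and NPLP were each called in 16 of 21. ALP_2 rose by 0.69 ± 0.17 (adjusted p = 0.0241), called in 9 of 19, but not when female replicate 3, male replicate 1 or male replicate 2 was left out (adjusted p = 0.0657 to 0.146). Set against matched cells that were rich in another precursor, FMRFa_4, CCRFa_1, AT, AstCCC and NPLP stayed higher, and EFLa (0.15, adjusted p = 0.902), KYMGLa (0.98, adjusted p = 0.326) and ALP_2 (-0.19, adjusted p = 0.748) did not pass.

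Of the 15 precursors called lower, 7 had matched sums that rested on 1 to 12 very rich cells, so they are given as levels with no p of edgeR's test. AstC (allatostatin C) had 0 to 25.01 CPM against 57.7 to 8408 CPM, where 12 matched cells and 0 Calcitonin_2 rich cells held more than 100 UMIs. For PK_2, a pyrokinin precursor, the levels were 6.18 to 138 CPM against 171 to 1438 CPM, with 10 and 0 such cells. In both every library was lower. CCRFa_2, with 5 matched cells, had 4.17 to 90.3 CPM against 46.3 to 7219 CPM. NPF (neuropeptide F), with 4, had 7.52 to 84.6 CPM against 8.24 to 11912 CPM and was higher than in matched cells in male replicate 2. GnRH rested on 2 matched cells, 1 in each male library, at 3441 and 7111 CPM. In the females it was near 0 in both kinds of cell, at 4.17 to 20.3 CPM against 11.2 to 25.6 CPM, and DESeq2 did not call it (-3.49, adjusted p = 0.141). FMRFa_1 and AstCC each rested on 1 matched cell. FMRFa_1 was higher than in matched cells in 2 libraries (16.2 against 8.10 CPM and 15.4 against 10.3 CPM) and was not called by DESeq2 (-1.33, adjusted p = 0.566), and AstCC was higher in 1 library (98.9 against 82.4 CPM). 0 of 263 cells allows a share of rich cells of up to 1.14% (3 cells, counting error only), above the matched share of CCRFa_2 (0.634%), NPF (0.507%), GnRH (0.253%), FMRFa_1 and AstCC (0.127% each), so fewer rich cells of these were not detectable at this number of cells.

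The rest of the precursors called lower held to different degrees. FMRFa_3 had 188 to 640 CPM against 563 to 3370 CPM (-2.17 ± 0.15, adjusted p = 2.32e-07), with each library lower. Proc, the precursor of the muscle-active pentapeptide proctolin, was at 8530.1, 3194 and 9778 CPM in the females and 4049 and 8744 CPM in the males, against 39358, 15616, 14526, 15920.1 and 58492 CPM (-2.14 ± 0.25, adjusted p = 6.01e-05). Proc still passed 100 UMIs in 35 Calcitonin_2 rich cells against 128 matched cells. The fall of Proc was lost at 2000 UMIs per cell (-0.60, adjusted p = 0.145), and it was called in 12 of 21 alternatives, against 18 of 21 for FMRFa_3. Mip (myoinhibitory peptide, -2.02, adjusted p = 0.000439), Dsk (sulfakinin, -1.53, adjusted p = 0.000486), sNPF (short neuropeptide F, -0.62, adjusted p = 0.0164), AstB (-1.78, adjusted p = 0.0442) and Elevenin_1 (-2.34, adjusted p = 0.0351) completed the group. They were called in 13 of 21, 15 of 17, 12 of 21, 9 of 21 and 7 of 20 alternatives in this order. Mip was -0.73 (adjusted p = 0.272) at 2000 UMIs per cell, -0.045 (0.987) with 1 match, -1.94 (0.151) against matched cells rich in another precursor and -2.37 (0.280) with more than 200 Calcitonin_2 UMIs. Of the rest, sNPF lost the call without female replicate 3 or male replicate 1 (adjusted p = 0.0596 and 0.125), AstB without either male replicate (0.118 and 0.140), and Elevenin_1 without female replicate 2, female replicate 3 or male replicate 2 (0.0653 to 0.135). With Calcitonin_2 above 2% of the cell, Proc (0.59), Mip (0.058), AstB (0.67) and Elevenin_1 (2.05) turned. FMRFa_3 (-0.84), Dsk (-1.46) and sNPF (-0.38) stayed lower there but did not pass. With 1 match, Proc was -0.54 (adjusted p = 0.685) and AstB 0.21 (0.893). Dsk was higher than in matched cells in female replicate 1 (32.4 against 18.9 CPM) and AstB in female replicate 2 (108 against 71.8 CPM).

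The remaining precursors with a UMI in at least 20% of the cells did not pass the test. They were CCAP_3 (crustacean cardioactive peptide, -0.23), CHH/ITP_2 (ion transport peptide, -1.49), ETH (ecdysis triggering hormone, -0.38), ALP_1 (0.06), NTL (-0.61), Elevenin_2 (-2.28), RYa_2 (1.32) and RYa_3 (1.59), with adjusted p of 0.164 to 0.952. RYa_2 was uneven between libraries, at 21793, 9259.6 and 24887 CPM in the females and 569.8 and 5976 CPM in the males, against 145.8 to 6476 CPM in matched cells. Left out 1 at a time, female replicate 1 brought Elevenin_2 to an adjusted p of 0.00578 and NTL to 0.0175.

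High counts of other precursors under the same barcode were thus common. Of the 263 cells, 187 (71.1%) held at least 1 other precursor above 100 UMIs, namely 66.7% in female replicates 1 and 2, 73.3% in female replicate 3 and 75% and 62.2% in the males, against 43.2% to 58.3% of matched cells with any precursor at that level. A single other was found in 82 cells, 2 in 63 and 3 or more in 42, up to 7. The 76 cells with none were shallow, with a median of 3923.5 UMIs against 12016 in the others. CCAP_3 passed 100 UMIs in 38 cells against 67 matched, OK in 22 against 17, sNPF in 24 against 90, DH31_1 in 19 against 67, and RYa_2 in 10 against 15, the matched cells being 3 times as many.

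**Figure D5:**
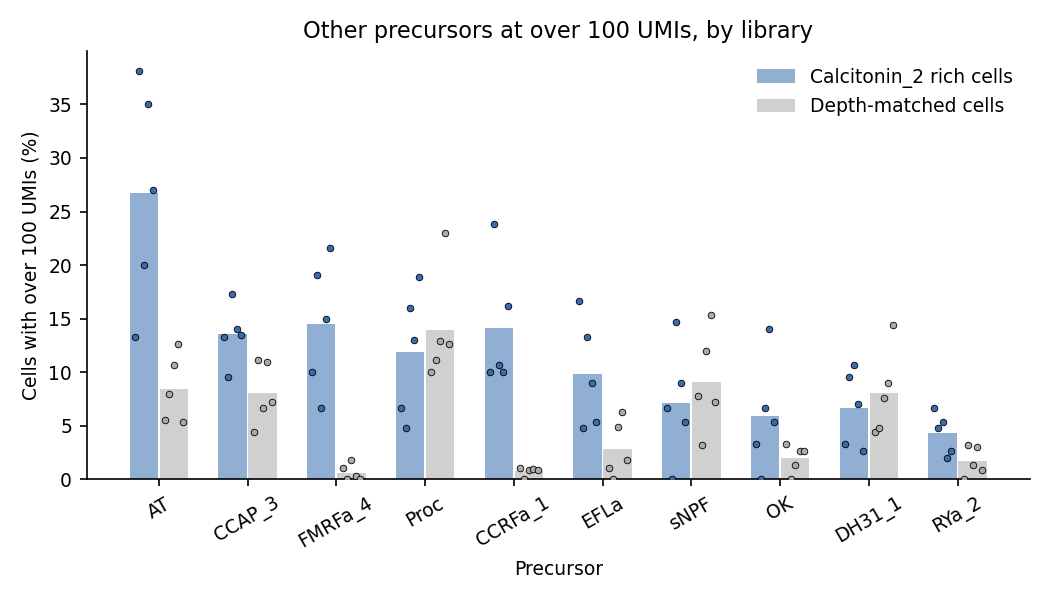
Share of cells with more than 100 UMIs of 10 precursors (bars are means over 5 libraries, points are libraries) in Calcitonin_2 rich and depth-matched cells. AT, FMRFa_4, CCRFa_1 and EFLa are more often rich in the former in all 5 libraries, CCAP_3 and RYa_2 in 4 and OK in 3, while Proc, sNPF and DH31_1 have the lower mean.

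The cells were partly alike in other genes. Among the 20 nearest cells of a Calcitonin_2 rich cell, by 30 principal components of 2000 variable genes without the Calcitonin pair, other such cells made up 4.33%, 7.62% and 5.60% in the female libraries and 15.05% and 3.38% in the male ones. Around matched cells the values were 1.61%, 1.51%, 1.69%, 2.73% and 0.856%. The mean was 7.196% ± 4.67 (SD, n = 5) against 1.68%, and 6.71% ± 3.93 when all 71 precursors were left out. With 10 components in place of 30 it was 4.41% ± 2.45 against 2.13%. In each library the value was thus above that around matched cells, and yet most neighbours were other cells. With the precursors left out, the cells of male replicate 1 rich in AT had 24.0% such neighbours against 7.69% for the rest, those of female replicate 3 had 11.7% against 3.42%, and those of female replicate 2 had 10.0% against 4.62%.

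Tested receptors were either higher or not called. Of 43 transmitter and peptide receptor genes 11 were tested, 5 were higher and 0 lower, with a median of 0.37. Of all genes tested 2.43% were higher and 4.09% lower. The largest change was that of evm.TU.CTG-627.10, at 52.7, 33.4 and 188 CPM in the females and 121 and 74.2 CPM in the males against 25.6, 14.4, 67.6, 36.2 and 28.9 CPM (1.38 ± 0.13, adjusted p = 7.49e-06). Each library was higher, and it was called in 16 of 18 alternatives. Also higher were evm.TU.CTG-1545.20 (0.51, adjusted p = 0.00492), DopEcR, a receptor that binds dopamine and ecdysteroids in flies (0.48, adjusted p = 0.0426), evm.TU.CTG-935.7 (0.49, adjusted p = 0.0166) and SPR_S1, named for the sex peptide receptor (0.52, adjusted p = 0.0391). evm.TU.CTG-935.7 lost the call without female replicate 3 or either male replicate (adjusted p = 0.0613 to 0.165), and SPR_S1 without female replicate 1, female replicate 3 or male replicate 1 (0.0874 to 0.303). DopEcR, named here after its value was seen to complete the count of 5, lost it without female replicate 1, female replicate 3 or male replicate 1 (0.0817 to 0.354). These 4 receptors were called in 14 of 21 (evm.TU.CTG-1545.20), 4 of 20 (DopEcR), 9 of 20 (evm.TU.CTG-935.7) and 7 of 21 alternatives (SPR_S1).

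Of 29 tested genes of vesicle release 1 was higher and 7 were lower, with a median of -0.20, where 2.43% of all genes were higher and 4.09% lower. The synaptotagmin SYT15_S1, which is not on this list and is given below, was higher. Cadps, which primes dense-core vesicles for release, was at 490, 309, 572, 714 and 470 CPM in the 5 libraries against 1014, 859.9, 725, 1043 and 807 CPM, each library being lower (-0.97 ± 0.16, adjusted p = 0.00121). The SNARE gene Snap24 (-0.66, adjusted p = 0.0076), the synaptotagmin SYT1_S1 (-0.64, adjusted p = 0.0021) and alphaSnap_S1 (-0.48, adjusted p = 0.00806) were also lower, the last not without male replicate 1 (adjusted p = 0.0754). FUR11_S2, named for a furin-type protease, a class that cuts precursor proteins, was higher (0.51, adjusted p = 0.0261), but not without female replicate 1 or male replicate 1 (adjusted p = 0.0655 and 0.185). It was named after its value was seen, as the only gene of the list that rose. Of the alternatives, Cadps was called in 19 of 21, Snap24 and SYT1_S1 in 14, alphaSnap_S1 in 12 and FUR11_S2 in 8. Of 10 ion channel genes tested 3 were lower and 0 higher: the potassium channel Sh_S3 (-0.68, adjusted p = 0.0048), its subunit Hk_S2 (-0.68, adjusted p = 0.00568) and the sodium channel para (-0.69, adjusted p = 0.0125, and 0.0897 without male replicate 1), called in 19 of 21, 17 of 21 and 11 of 19 alternatives. Of 5 neuron markers elav was lower (-0.49, adjusted p = 0.0122, and 0.0759 without male replicate 1), called in 14 of 21, and Syt1 (-0.18), nSyb (-0.39) and brp (-0.10) did not pass.

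The counts of the other fixed groups stand beside 2.43% higher and 4.09% lower of all genes tested. Of these groups, 1 of 2 tested transcription factors of neuronal identity was higher, the FoxP2 gene evm.TU.CTG-619.58, at 33.4 to 64.8 CPM against 12.4 to 26.3 CPM (1.06 ± 0.22, adjusted p = 0.007). It lost the call with 1 match (0.84, adjusted p = 0.167) and against matched cells rich in another precursor (0.63, adjusted p = 0.322). Of 3 tested transmitter genes Ddc, which makes dopamine and serotonin, was lower (-1.25, adjusted p = 0.00228), called in 12 of 15 alternatives. Gad1, which makes GABA, had a UMI in 10.3% of the cells and VAChT, the acetylcholine transporter, in 18.3%, with log2 differences of -0.21 and 0.21 that did not pass. 0 of 10 heat shock genes, which respond to stress such as dissociation, passed edgeR's test (3 at an unadjusted p under 0.05), 0 of 1 glia and 0 of 1 hemocyte markers did (0 and 0 at that level), and 1 of 6 mushroom body markers was called, sNPF. The 10 heat shock genes summed to 47606, 22342, 18864, 14764 and 22293 CPM in the 5 libraries against 32728, 14507, 18399, 13349 and 17091 CPM in matched cells, so each library was higher, and the part of this in the other differences was not tested. Of 5 tested fat body markers, Ahcy (-2.72, adjusted p = 1.34e-05) and ACC (-1.20, adjusted p = 0.0264) were lower, the 7 markers summing to 256 to 372 CPM against 238 to 1297 CPM in matched cells. ACC lost the call without female replicate 2 or 3 (adjusted p = 0.0849 and 0.249). Ahcy was called in 17 of 20 alternatives, though not against matched cells rich in another precursor (-1.09), and ACC in 8 of 14. The part of fat body RNA in the matched cells was not tested.

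Named genes outside these lists also differed in all 5 libraries. Higher were the synaptotagmin SYT15_S1 (0.89 ± 0.11, adjusted p = 7.71e-05), FGRL1_S2, named for a fibroblast growth factor receptor-like protein (0.95 ± 0.14, adjusted p = 0.000656), the inositol phosphatase 5PtaseI (0.70), the zinc finger factor BC11A (0.71) and the histone gene H33_S2 (0.73). SYT15_S1 was at 474, 463 and 317 CPM in the females and 430 and 263 CPM in the males, against 153 to 217 CPM. Lower were the calcium exchanger Nckx30C_S3, at 12.5 to 74.9 CPM against 112 to 212 CPM (-1.68 ± 0.15, adjusted p = 5.98e-06), and the beta-tubulin TBB1_S1, at 417 to 809.9 CPM against 1219 to 1342 CPM (-1.28 ± 0.14, adjusted p = 3.18e-05). SYT15_S1 was called in 20 of 21 alternatives, FGRL1_S2 and Nckx30C_S3 in 19, TBB1_S1 in 18, H33_S2 in 17, BC11A in 16 and 5PtaseI in 15. For SYT15_S1, Nckx30C_S3 and TBB1_S1 the values of both kinds of cell did not overlap. Among genes with no name, evm.TU.CTG-968.12 (2.01) and evm.TU.CTG-968.14 (1.76) rose with the smallest p. Lower were evm.TU.CTG-1165.2, at 0 to 29.2 CPM against 1.35 to 6144 CPM, and evm.TU.CTG-8.3, at 0 to 38.9 CPM against 2.70 to 8812 CPM. Both passed the filter on low counts mainly through the matched cells, so they are given as levels with no test. In female replicate 1 the last pair was near 0 in both kinds of cell, at 0 CPM against 1.35 and 2.70 CPM.

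Sex was compared with the question of whether males and females differ in these neurons. The share of Calcitonin_2 rich cells was 0.775% ± 0.291 (SD, n = 3) in females and 0.917% ± 0.654 (n = 2) in males, and the libraries of both sexes overlapped. An exact permutation test gave a two-sided p of 0.8, and since 0.2 is the smallest p that 3 against 2 libraries allow, no difference in this share could have passed. The order turned without female replicate 2 (0.942% against 0.917%) or male replicate 1 (0.775% against 0.455%). Over all kept cells Calcitonin_2 was at 939, 758 and 1224 CPM in the females and 3611 and 576 CPM in the males, with male replicate 1 alone standing apart. The means were 974 and 2094 CPM, and without the 6 cells above 5000 UMIs they were 837 ± 92.1 and 808 ± 329 CPM. Without male replicate 1 they were 974 and 576 CPM.

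Within the Calcitonin_2 rich cells 4 of 4398 genes tested differed between the sexes (0.091%), 3 higher in females (0.0682%) and 1 higher in males (0.0227%). None of them was among the 34 precursors tested. ENOX2_S2 had 977, 746 and 997 CPM in the females and 172 and 117 CPM in the males (log2 female minus male 2.72 ± 0.35, edgeR adjusted p = 0.00714). evm.TU.CTG-1084.7 (3.35 ± 0.44, adjusted p = 0.00714) and evm.TU.CTG-1523.1 (3.42 ± 0.54, adjusted p = 0.0267) were also higher in females. evm.TU.CTG-333.35, at 0, 0 and 10.0 CPM in the females and 112 and 95.8 CPM in the males, was higher in males (-4.06 ± 0.58, adjusted p = 0.0125). The same order was seen in the matched cells, where ENOX2_S2 had 788, 547, 827, 129 and 132 CPM and evm.TU.CTG-333.35 had 14.9, 3.19, 7.93, 123 and 93.8 CPM. A test of whether the sexes differed alike in both kinds of cell called 1 of 6057 genes (0.0165%), GnRH, which was near 0 in the Calcitonin_2 rich cells of both sexes and high only in 2 matched cells of the males, and gave an adjusted p of 1.000 for each of these 4 genes. The count of 4 was 0 without female replicate 1 (110 genes at an unadjusted p under 0.05), 22 without male replicate 1 and 26 without male replicate 2. ENOX2_S2 also lost the call without male replicate 2 (adjusted p = 0.0555), and evm.TU.CTG-1523.1 without female replicate 3 (0.0895).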

How the data were processed

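Brain cells of 3 female and 2 male pools were sequenced with a droplet kit for transcript 3′ ends. The authors counted UMIs per gene and barcode with CellRanger 4.0.0 (per the file headers) against their own genome and gene models, and deposited raw counts for 19195 genes (37 mitochondrial), without normalization. The members and gene lists were chosen with earlier results of these data known. Gene names are those of the study.

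Sums of counts per library, without Calcitonin_1 and Calcitonin_2, were tested with edgeR 4.0.16 under R 4.3.3 (its quasi-likelihood test, TMM scaling and default filter on low counts, library as a block between cell groups, Benjamini-Hochberg adjustment at 0.05). All log2 differences come from this fit. On simulated data with 200 of 6057 genes changed, 182 were recovered, 93% at a log2 change of 2 and 89% at 1, with 11 false calls. For the sexes 99 of 200 in 4398 genes were, 82% and 17%, with 3. The simulated counts had the general trend of spread and no library effect. These rates therefore do not hold for precursors whose sums rest on a few rich cells. Doublets were called by simulated doublets and kept. The rest was computed in Python 3.11.15. Text names the calcitonin-type precursors, other precursors called or with a UMI in 20% of the cells, up to 4 genes a list, and the top genes by p that changed alike in all libraries. DopEcR and FUR11_S2 were named after their values were seen.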

Additional observations from a re-analysis of the deposited data

Results flagged for a closer look

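The test of sex against kind of cell called GnRH, with an interaction of 7.30 ± 0.78 (log2, female minus male, edgeR adjusted p = 0.00097, 1 of 6057 genes, 0.0165%). The Calcitonin_2 rich cells had 4.17 to 20.3 CPM of GnRH in all 5 libraries, whereas matched cells had 11.2 to 25.6 CPM in the females and 3441 and 7111 CPM in the males, where 2 cells held more than 100 UMIs. The value rests on these 2 matched cells and says nothing of a sex difference in the Calcitonin_2 rich cells.

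Outside the limits on cells, 3 barcodes held more than 100 Calcitonin_2 UMIs, 1 in female replicate 2 and 2 in male replicate 1, with at most 131 UMIs. All 3 were left out for their mitochondrial share.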

How the results depend on the processing

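The 395 genes that differed between Calcitonin_2 rich and matched cells became 975 against all other kept cells, 129 with 1 match per cell, 94 against matched cells rich in another precursor and 6 without Calcitonin_2 rich cells rich in another precursor. They became 737 with more than 50 UMIs of Calcitonin_2, 108 with more than 200, 95 with Calcitonin_2 above 2% of the cell, 231 with a mitochondrial share under 20% and 38 with 250 to 3000 genes. They became 237 with DESeq2, 845 with no filter on low counts, 37 with no library block, 76 at 2000 UMIs per cell (chosen after seeing the data) and 224 to 365 with 1 library left out. The 4 genes that differed by sex became 1 with more than 200 UMIs, 40 with no filter, and 0 to 26 with 1 library left out. The interaction with sex gave 2 to 4 genes with 1 library left out. The cause of these changes was not tested, beyond fewer cells or genes where a setting keeps fewer.

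The female minus male share turned to 0.115 with Calcitonin_2 above 2%, 0.0729 with 250 to 3000 genes, 0.0102 when cells were thinned to 2000 UMIs, and -0.605 to 0.320 with 1 library left out. For Calcitonin_2 CPM it turned to 29.1 without cells above 5000 UMIs and ran from -2638 to 398 with 1 library left out.

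Of the values of named genes under an alternative, 1037 kept direction and side of the threshold, 260 lost the call, 26 gained one and 62 turned. In log2, with Calcitonin_2 above 2% of the cell the turned values were Calcitonin_3 0.23, DH31_1 0.12, ALP_1 -0.15, AstB 0.67, Mip 0.058, CCAP_3 0.91, Elevenin_1 2.05, Elevenin_2 0.86, NTL 0.12, OK -1.23, Proc 0.59, Ahcy 0.28, evm.TU.CTG-935.7 -0.11 and SPR_S1 -0.040. Without Calcitonin_2 rich cells rich in another precursor, AT was -3.92 by construction, AstB 1.36, Mip 0.26, AstCCC -0.27, FMRFa_4 -0.27, NTL 0.69, OK -2.20, FGRL1_S2 -0.12, FUR11_S2 -0.22, 5PtaseI -0.32 and BC11A -0.56. With 250 to 3000 genes, DH31_1 was 0.64, AstB 0.61, Mip 0.39, CCAP_3 0.28, OK -0.91 and evm.TU.CTG-968.14 -0.030. With 1 match, AstB was 0.21, CCAP_3 0.56, NTL 0.051, OK -0.34 and Gad1 0.53. Against all other kept cells, ALP_1 was -0.0025, Elevenin_1 0.48, OK -0.15, VAChT -0.15 and Gad1 0.64 (adjusted p = 0.0144). Against cells rich in another precursor, ALP_1 was -0.34, ALP_2 -0.19, OK -0.73 and Gad1 0.59. With more than 50 UMIs, ALP_1 was -0.045 and CCAP_3 0.35, and with more than 200, ALP_1 -0.070 and OK -0.30. Without doublet calls, CCAP_3 was 0.0079 and Gad1 0.10. At 2000 UMIs, CCAP_3 was 0.20 and OK -0.30. OK was -0.17 against cells with at most 10 Calcitonin_2 UMIs, -0.27 at the lower mitochondrial share, -0.0005 in DESeq2, -0.017 with no filter and -0.059 with no library block. With 1 library left out, OK ran from -0.40 to 0.54, CCAP_3 from -0.57 to 0.055 and brp from -0.13 to 0.0099.

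Replicate numbers were shared by 2 female and male libraries, whose deviations correlated at -0.0094 and 0.18, so the numbers were not taken to pair the samples. With a replicate block, 9 genes differed by sex and 16 in the interaction, and all 4 genes named for sex kept the call.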
